A study of Mus musculus with 20 samples.

Results

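The genes described here are the chemokines and chemokine receptors of mouse liver. They were taken by symbol, as every gene named Ccl, Cxcl or Cx3cl with a number, Xcl1, and every gene named Ccr, Cxcr or Cx3cr with a number, from array probes that carry a single gene symbol. This gave 47 genes of the 15256 on the array, 33 ligands and 14 receptors, read by 57 of 18790 probes. The 20 mice formed 5 groups, with 4 livers in each. Vehicle mice were given Ringer's solution alone, and every siRNA group was given 40 µg of its siRNA in that solution. Both PPARa siRNA and PPARa-M siRNA target Ppara, the nuclear receptor that drives fatty acid oxidation in hepatocytes. GL3 control siRNA targets the firefly luciferase reporter and SEAP-M control siRNA targets secreted alkaline phosphatase. What the suffix M stands for is not given in the sources used here. All groups, vehicle included, underwent the hydrodynamic injection, in which a volume equal to 10% of body weight is forced into the tail vein within seconds, and all livers were taken 48 h later, so that no group shows an uninjected liver. Strain, sex and age are not given in the sources used here.

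Chemokines are small secreted proteins that guide leukocytes along gradients through G protein-coupled receptors. CC and CXC ligands are named for the spacing of their first cysteines. In the liver, hepatocytes, Kupffer cells, endothelium and stellate cells make inflammatory chemokines after injury, which bring neutrophils and monocytes out of the sinusoids. The receptors are mostly carried by those leukocytes. Several ligands are induced through NF-κB, and Cxcl9, Cxcl10 and Cxcl11 through the interferon pathway. RNA was taken from whole liver, in which fewer cells of a type and less RNA per cell cannot be told apart.

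Each value is the log ratio of 1 mouse to a pool of RNA from 4 vehicle mice, given here on the log2 scale. The log base of the deposited ratios is not stated with them and was read as 10, and the direction, mouse over pool, is the likely one: the labels name the dyes and the 2 RNAs, and Ppara lay below 0 in the 4 PPARa-M siRNA mice, from -1.05 to -0.59. A level relative to one pool can be compared between mice, not between genes. In limma's fit Ppara was lower with PPARa-M siRNA than with SEAP-M control siRNA (log2 difference -0.89, standard error 0.17, adjusted p = 0.0104) and did not pass with PPARa siRNA against GL3 control siRNA (-0.34, standard error 0.17, adjusted p = 1.0). The spread of all ratios differed between mice, with an interquartile range from 0.147 to 0.414 on the log2 scale. Adjusted p in the text is Benjamini-Hochberg over 15256 genes from limma, with a threshold of 0.05. Precision is limited by the 4 arrays of a group. The p-values of limma rest on the spread between mice within groups, pooled over all 5 groups and moderated across genes. They do not rest on the spread of the compared groups alone.

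Few chemokine genes differed between groups, and many differed widely between the mice of a group. Between PPARa-M and SEAP-M control siRNA 0 of the 47 passed, against 2.54% of all genes. By unadjusted p under 0.05, 6 of the 47 were higher and 2 lower, which is 17% beside 18.8% of all genes. For PPARa against GL3 control siRNA 0 passed, against 0.0524% of all genes, with 2 higher and 0 lower by unadjusted p (4.26% beside 4.95% of all genes). Between both Ppara siRNAs and both control siRNAs 0 passed, against 0.216%, with 5 higher and 2 lower by unadjusted p (14.9% beside 11.3%). Relative to vehicle, 2 of the 47 passed with PPARa-M siRNA, Ccl4 higher and Ccl25 lower. This is 4.26% of the members beside 7.28% of all genes, and by unadjusted p 21.3% beside 23.3%. With PPARa siRNA 0 passed, against 0.0787% of all genes, with 4 higher and 1 lower by unadjusted p (10.6% beside 5.56%). The control siRNAs gave 0 calls relative to vehicle, against 0.00655% of all genes for SEAP-M and 0.0131% for GL3, and 0 relative to each other, against 0%. By unadjusted p these comparisons gave 0 members for SEAP-M control siRNA (5.85% of all genes), 1 for GL3 control siRNA (2.13% beside 2.77%) and 4 between them (8.51% beside 11.1%). In the F test over the 5 groups 2 of the 47 passed, Cxcl1 and Ccl27a, beside 5.75% of all genes, and by unadjusted p 9 passed, 19.1% beside 22%. The contrast of the siRNA effects, PPARa-M less SEAP-M control minus PPARa less GL3 control, gave 0 calls, against 0.878% of all genes, with 7 members higher and 1 lower by unadjusted p (17% beside 12.6%).

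**Figure D1:**
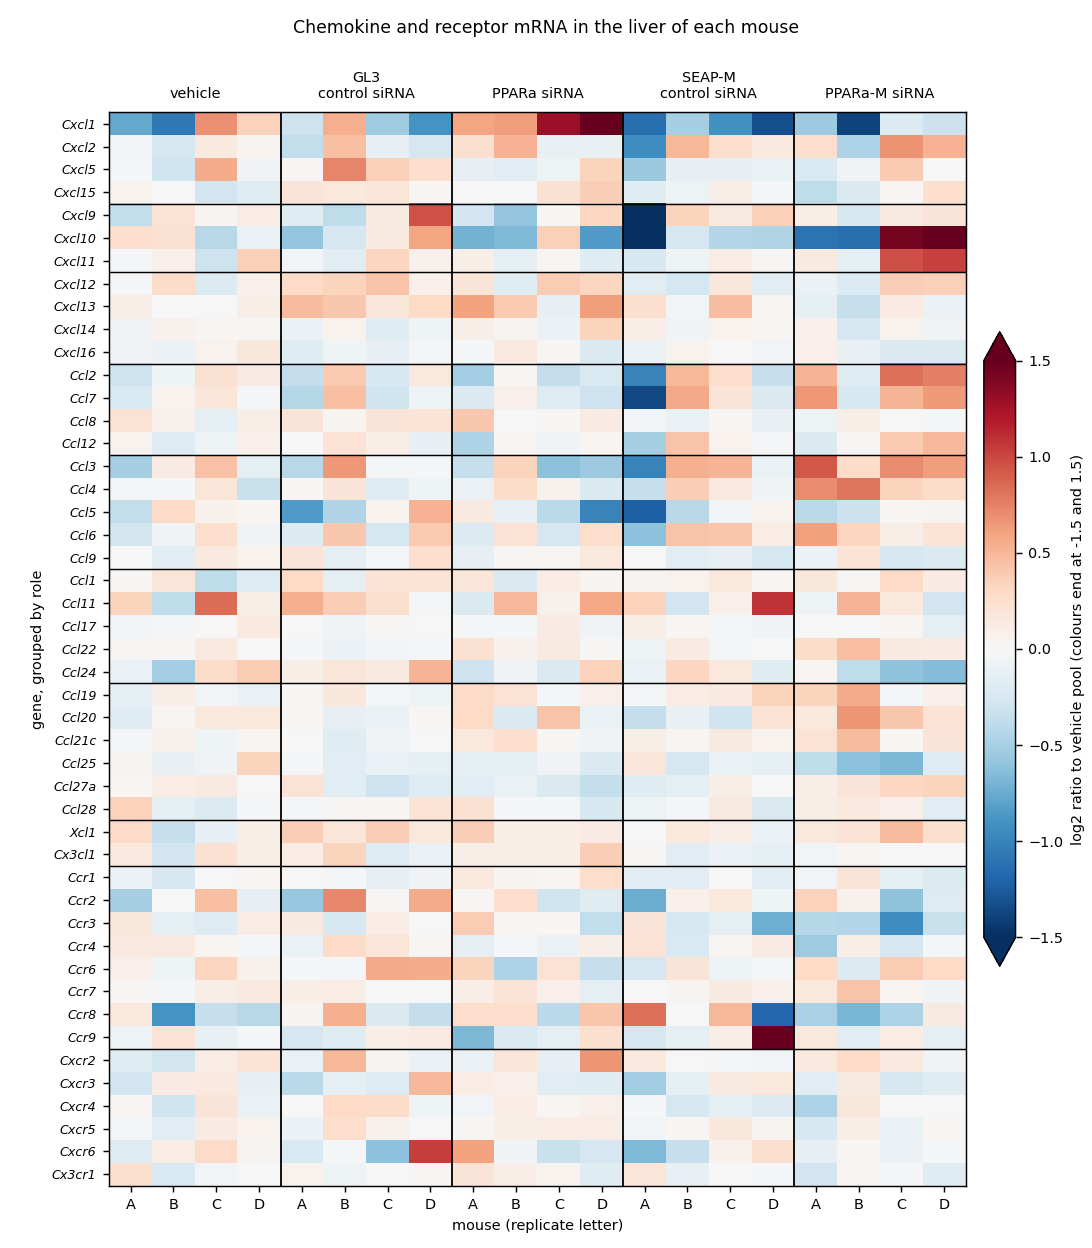
Log2 ratio to the vehicle pool of the 47 chemokine and receptor genes (rows, grouped by role) in each of the 20 mice (columns, 5 groups of 4). The largest values lie in single mice: Cxcl1 at 2.39 in PPARa siRNA D, Ccr9 at 1.94 in SEAP-M control siRNA D, Cxcl10 at 1.44 and 1.51 in PPARa-M siRNA C and D and at -2.08 in SEAP-M control siRNA A.

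Within groups, 36 of the 47 genes had a larger standard deviation than the median gene of the array, 0.148 on the log2 scale, and 13 lay among the top 5% of all genes. They include Cxcl10 (within-group SD 0.85, above that of 99.6% of all genes), Cxcl1 (0.67, above 99.1%), Cxcl9, Ccl2, Ccl3, Ccl5 and Ccl7, and the receptors Ccr2, Ccr8, Ccr9 and Cxcr6. Ccl17, at 0.07, and Ccl22, at 0.10, varied least. For Ccl2 the array holds 6 probes, and these ranked the mice alike, with correlations across the 20 mice between 0.982 and 0.997, and the 2 probes of Ccl5 correlated at 0.993. The 3 probes of Ccr2 correlated at 0.653 to 0.950 and the 2 of Cxcl12 at 0.803, whereas the 2 probes of Cxcl14, at -0.256, did not follow each other. The other 42 genes have 1 probe, so their values have no such check. The median difference over the 47 was 0.09 between PPARa-M and SEAP-M control siRNA, beside -0.01 over all genes, and -0.05 for PPARa against GL3 control siRNA, beside 0.01. The mean of the 47 was -0.29 in SEAP-M control siRNA A, against 0.00, 0.06 and -0.03 in B, C and D. It was 0.00, -0.03, 0.10 and 0.10 in PPARa-M siRNA A to D.

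**Figure D2:**
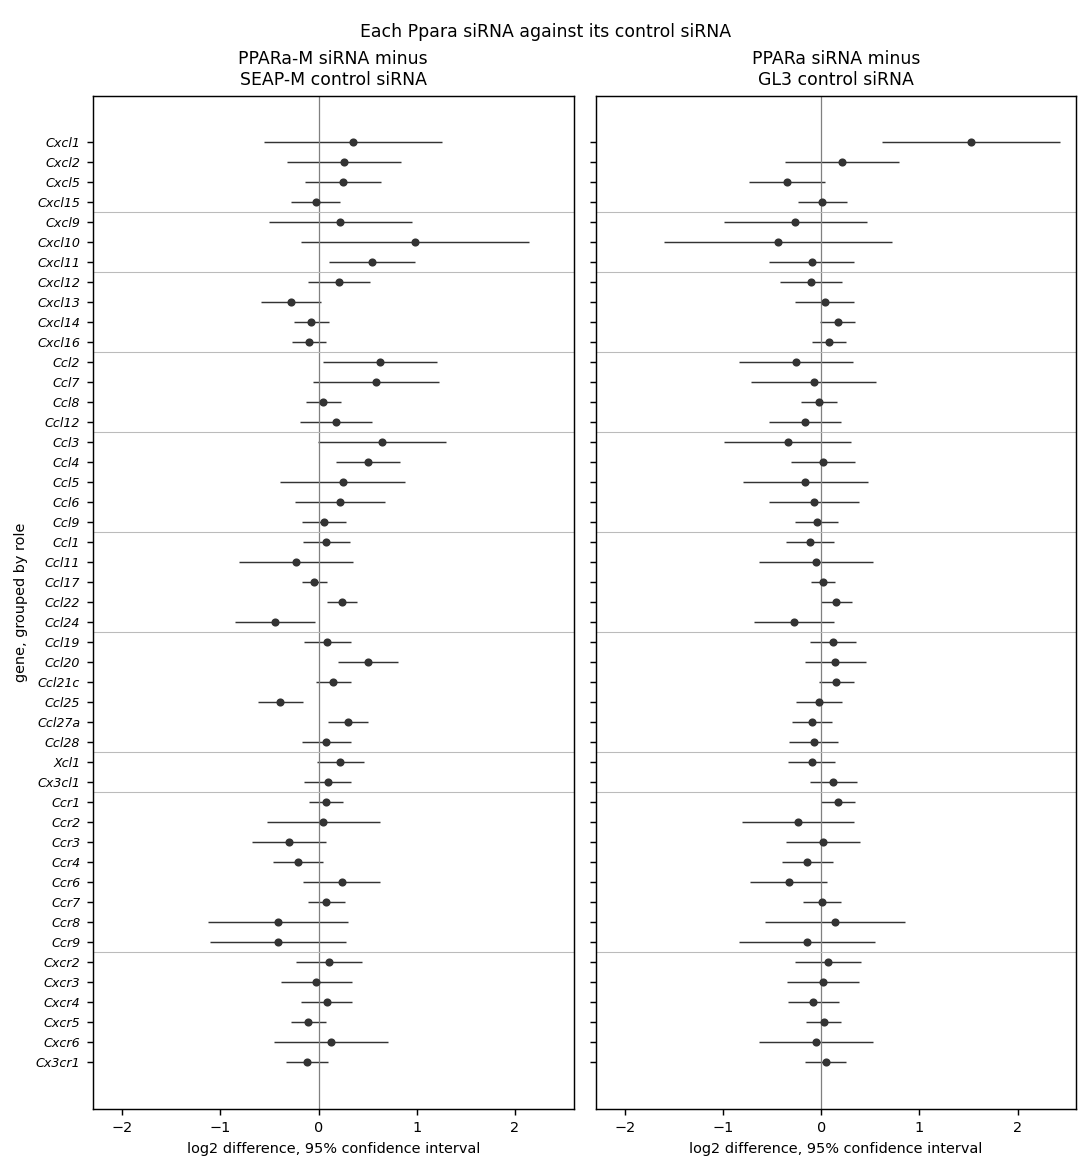
Log2 difference (points) with the 95% confidence interval of limma's fit (lines) for the 47 genes, grouped by role, for PPARa-M siRNA minus SEAP-M control siRNA (left) and PPARa siRNA minus GL3 control siRNA (right). Cxcl1 has the largest difference on the right, 1.53, and Cxcl10 the largest on the left, 0.98, with an interval that includes 0.

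The ligands that attract neutrophils were led by Cxcl1, known as KC, which acts on Cxcr2. Its log2 ratio was 0.59, 0.63, 1.30 and 2.39 in PPARa siRNA mice A, B, C and D. In GL3 control siRNA it was -0.32, 0.54, -0.53 and -0.90, all below the PPARa siRNA mice. In vehicle it was -0.77, -1.07, 0.68 and 0.34, in SEAP-M control siRNA -1.13, -0.49, -0.91 and -1.32, and in PPARa-M siRNA -0.54, -1.39, -0.21 and -0.32. The vehicle mice overlapped the PPARa siRNA mice only through vehicle C. Cxcl1 passed the F test over the 5 groups (adjusted p = 0.0281). Its difference was 1.53 for PPARa against GL3 control siRNA (2.88-fold, standard error 0.43, two-sided exact permutation p = 0.0286, the smallest that 4 mice against 4 allow, limma's adjusted p = 0.565), and 1.43 between PPARa siRNA and vehicle (exact permutation p = 0.0857). Without PPARa siRNA D no chemokine passed the F test, and without PPARa siRNA C Cxcl13 passed it in place of Cxcl1. Without mouse D the difference from GL3 control siRNA was 1.14 (standard error 0.41, adjusted p = 0.660).

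Markers of neutrophils were highest in the mouse with the highest Cxcl1, PPARa siRNA D. The mean log2 ratio of 11 measured neutrophil markers was 0.61, 0.37, -0.18 and 2.50 in PPARa siRNA A, B, C and D, and from -0.20 to 0.63 in GL3 control siRNA. It lay between -0.49 and -0.24 in SEAP-M control siRNA, between -0.29 and -0.18 in PPARa-M siRNA and between -0.30 and 0.17 in vehicle. All 11 had a positive difference for PPARa against GL3 control siRNA, with a median of 0.54, and 0 passed (4 by unadjusted p). Without mouse D the median was 0.04 and 6 of the 11 were positive. Ngp, a neutrophil granule protein, had the smallest p of these, with a difference of 1.47 (standard error 0.54, adjusted p = 0.861). Over the 20 mice Cxcl1 and the mean of the markers correlated with Pearson's r = 0.808 (p = 3e-05) and Spearman's rho = 0.832 (p = 2e-05), in permutation tests whose adjusted p over the 4 relations with gene lists computed here was 0.00012 and 8e-05. The correlation was 0.688 without the 2 mice farthest from the median of the markers and 0.654 with group means removed. In mouse C Cxcl1 was at 1.30 and the markers at -0.18. The part of neutrophil number in the Cxcl1 values was not tested.

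None of the other ligands of this kind passed in a comparison. Cxcl2 (MIP-2), which lies near Cxcl1 and acts on the same receptor, had a difference of 0.21 for PPARa against GL3 control siRNA (standard error 0.28). Cxcl5 had a difference of -0.35 in that comparison (standard error 0.18) and of -0.57 between the control siRNAs, SEAP-M minus GL3 (standard error 0.18, adjusted p = 0.261), where its groups do not overlap. Cxcl15, lungkine, differed by 0.01. Cxcr2, the receptor of Cxcl1, differed by 0.07 (standard error 0.16). The sequences before the starts of Cxcl1 and Cxcl2 are shown because the values of this pair with PPARa siRNA were unlike, 1.30 and 2.39 against -0.11 and -0.12 in mice C and D, and both windows hold the NF-κB consensus. They are from RefSeq on GRCm38.p6, 250 bases before the start, plus strand for both genes, 5′ to 3′, and capitals mark matches to the NF-κB consensus, which here overlap on both strands.
Cxcl1, chr5:90890995-90891244: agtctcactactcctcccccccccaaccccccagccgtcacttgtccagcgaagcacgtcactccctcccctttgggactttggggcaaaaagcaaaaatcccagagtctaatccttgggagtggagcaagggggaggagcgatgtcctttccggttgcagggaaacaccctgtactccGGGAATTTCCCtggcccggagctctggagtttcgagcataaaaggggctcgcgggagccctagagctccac
Cxcl2, chr5:90903649-90903898: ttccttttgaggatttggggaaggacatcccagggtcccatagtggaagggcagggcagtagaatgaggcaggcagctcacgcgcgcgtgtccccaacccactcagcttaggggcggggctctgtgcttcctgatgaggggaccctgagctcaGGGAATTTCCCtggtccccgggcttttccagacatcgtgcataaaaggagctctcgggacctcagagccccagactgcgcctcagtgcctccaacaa
The match begins at -71 in Cxcl1 and at -97 in Cxcl2, counted from the start of transcription. RefSeq's table held such a window for 35 of the 47 genes. The NF-κB consensus was found on either strand in 9 of the 39 windows of these 35 genes, beside 7.25% of the 32851 windows of all genes. A match is one of letters and does not show that a factor was bound.

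**Figure D3:**
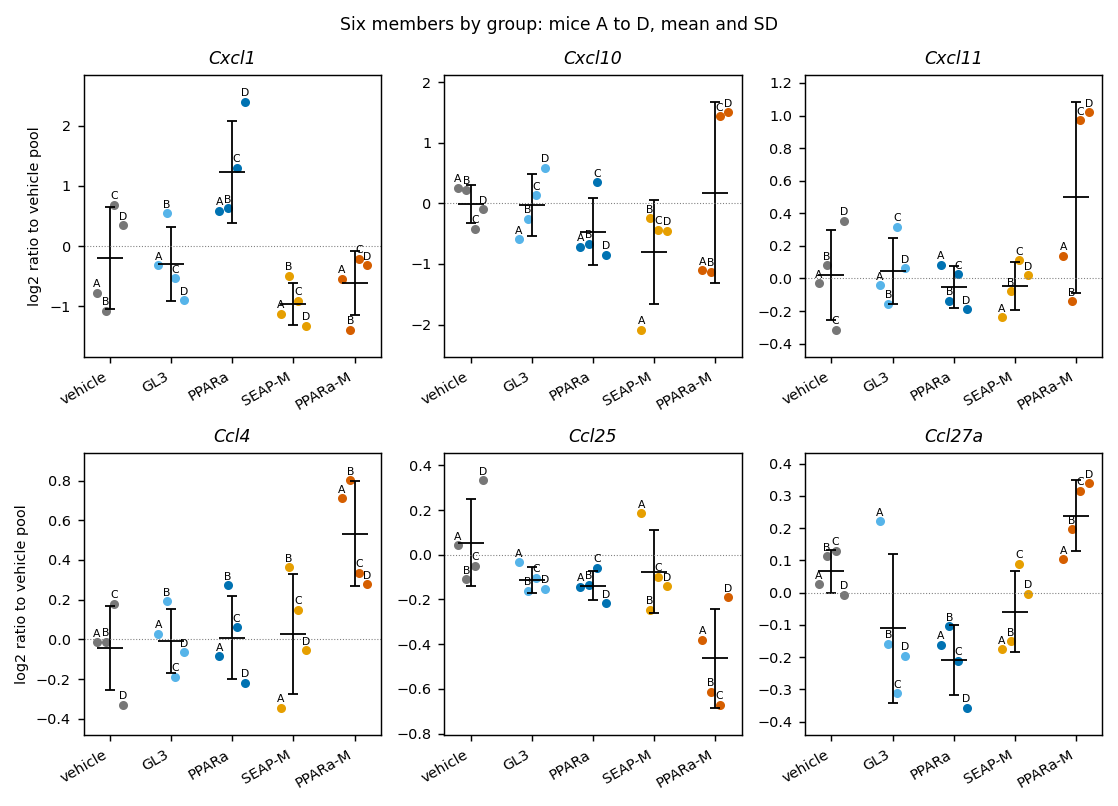
Log2 ratio to the vehicle pool of Cxcl1, Cxcl10, Cxcl11, Ccl4, Ccl25 and Ccl27a in the mice A to D of each group (coloured points), with the mean and SD of the group (black). For Cxcl10 and Cxcl11 the PPARa-M siRNA mice form 2 pairs, A with B and C with D, and for Cxcl1 the PPARa siRNA mice lie above the GL3 control siRNA mice.

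Of Cxcl9, Cxcl10 and Cxcl11, the ligands of Cxcr3 that interferons induce, Cxcl10 and Cxcl11 were higher in 2 mice of the PPARa-M siRNA group than in the other 2. Cxcl10 (IP-10) was at 1.44 and 1.51 in PPARa-M siRNA C and D and at -1.11 and -1.13 in A and B. In SEAP-M control siRNA it was -2.08, -0.25, -0.44 and -0.45 in A to D, and in vehicle 0.26, 0.23, -0.42 and -0.10. It was -0.71, -0.66, 0.35 and -0.85 in PPARa siRNA, and -0.59, -0.25, 0.14 and 0.59 in GL3 control siRNA. Both high mice stood above every other mouse, and both low mice below all mice but SEAP-M control siRNA A. Cxcl11 (I-TAC) was at 0.97 and 1.02 in the same mice C and D, at 0.14 and -0.14 in A and B, and between -0.31 and 0.36 in the 16 mice of the other groups. Cxcl9 (MIG) did not part in this way. It was 0.10, -0.24, 0.13 and 0.19 in PPARa-M siRNA, and its extremes were -1.53 in SEAP-M control siRNA A and 0.95 in GL3 control siRNA D. None of these ligands passed between PPARa-M and SEAP-M control siRNA, where Cxcl10 had a difference of 0.98 (standard error 0.55, adjusted p = 0.349) and Cxcl11 of 0.54 (standard error 0.21, adjusted p = 0.159). Without mice C and D these were -0.31 (standard error 0.45) and 0.05 (standard error 0.16).

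Mice C and D of the PPARa-M siRNA group also stood apart in the interferon-stimulated genes. The mean of 29 such genes, none of them a chemokine, was 1.33 and 1.32 in C and D, 0.14 and -0.06 in A and B, and between -0.22 and 0.21 in the 16 other mice. Of the 29, 4 rose between PPARa-M and SEAP-M control siRNA and 0 fell, where 2.54% of all genes passed. The median was 0.58, beside -0.01 over all genes. Without C and D, 1 rose and 1 fell, and the median was 0.02. With all mice kept, Eif2ak2 (PKR), the kinase activated by double-stranded RNA, rose by 0.51 on the log2 scale (standard error 0.10, adjusted p = 0.0142). Irf1, a transcription factor, rose by 0.61 (standard error 0.13, adjusted p = 0.01935). Dhx58 (LGP2), a regulator of RNA sensing, rose by 1.11 (standard error 0.25, adjusted p = 0.0262). For PPARa against GL3 control siRNA 0 of the 29 passed (1 by unadjusted p) and the median was -0.11. Of 6 genes of interferons and their receptors, 1 fell between PPARa-M and SEAP-M control siRNA. Over the 18 mice other than C and D, the list correlated with Cxcl10 at r = 0.568 and rho = 0.550 (permutation p = 0.0129 and 0.0191, adjusted 0.0217 and 0.0383 over 4 relations), with Cxcl9 at r = 0.541 and rho = 0.338 (p = 0.0163 and 0.173, adjusted 0.0217 and 0.173) and with Cxcl11 at r = 0.437 and rho = 0.375 (p = 0.0680 and 0.127, adjusted 0.0680 and 0.169). Without the 2 mice farthest from the median of the list, SEAP-M control siRNA A and B, these were 0.442, 0.304 and 0.450. No pooled value is given, since C and D form a cluster of their own.

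The windows before Cxcl10 and its neighbour Cxcl9 are shown because Cxcl10 was high in PPARa-M siRNA C and D, the mice with high interferon-stimulated genes, and Cxcl9 was not. They are from RefSeq on GRCm38.p6, minus strand for both genes, 5′ to 3′, and capitals mark matches to the interferon response motif GAAANNGAAA or the NF-κB consensus on either strand.
Cxcl10, chr5:92348890-92349139: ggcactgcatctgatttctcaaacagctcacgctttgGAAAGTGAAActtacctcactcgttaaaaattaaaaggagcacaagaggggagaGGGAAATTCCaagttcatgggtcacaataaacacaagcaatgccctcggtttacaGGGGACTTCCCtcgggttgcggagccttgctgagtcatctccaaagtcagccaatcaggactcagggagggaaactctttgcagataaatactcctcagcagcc
Cxcl9, chr5:92328080-92328329: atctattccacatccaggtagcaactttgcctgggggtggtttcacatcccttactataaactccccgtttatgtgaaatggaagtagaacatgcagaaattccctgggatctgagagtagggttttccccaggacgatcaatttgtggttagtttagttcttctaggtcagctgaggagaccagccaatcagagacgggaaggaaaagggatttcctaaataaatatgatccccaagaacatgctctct
In Cxcl10 the interferon motif begins at -213, and the NF-κB matches lie at -159 to -150 and from -104 to -94. Neither motif was found in the Cxcl9 window. No window was available for Cxcl11, which was also high in PPARa-M siRNA C and D. The interferon motif was found on either strand in 3 of the 39 windows of the 35 chemokine genes, beside 2.98% of the 32851 windows. These were the windows of Ccl19, Cxcl10 and Cxcl14. In PPARa-M siRNA A to D, Ccl19 was 0.34, 0.56, -0.03 and 0.08 and Cxcl14 was 0.07, -0.25, 0.05 and -0.05.

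**Figure D4:**
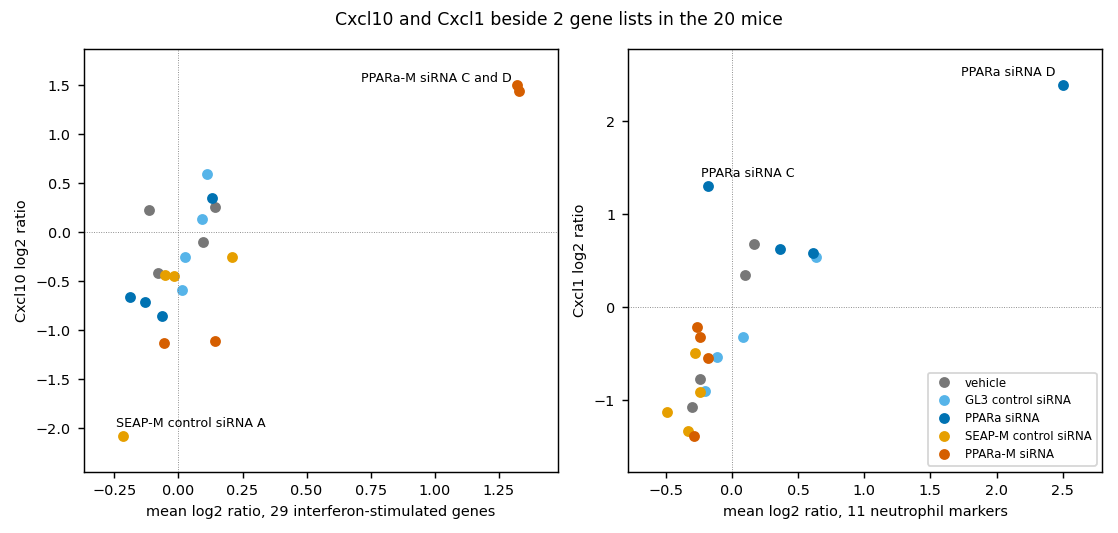
Left, log2 ratio of Cxcl10 against the mean log2 ratio of 29 interferon-stimulated genes, and right, Cxcl1 against that of 11 neutrophil markers, for the 20 mice, coloured by group. PPARa-M siRNA C and D stand alone at the upper right on the left, with list means of 1.33 and 1.32, and PPARa siRNA D stands alone on the right, at 2.50 and 2.39.

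Among the other CXC ligands none passed in a comparison. Cxcl13, which draws B cells into follicles, was 0.60, 0.39, -0.13 and 0.63 in PPARa siRNA A to D, 0.48, 0.41, 0.18 and 0.30 in GL3 control siRNA, and 0.24, -0.04, 0.47 and 0.02 in SEAP-M control siRNA. It was -0.14, -0.34, 0.12 and -0.09 in PPARa-M siRNA and 0.10, -0.01, 0.01 and 0.08 in vehicle. The GL3 control siRNA mice all lay above the vehicle mice (difference 0.29, standard error 0.14, adjusted p = 1.0), and PPARa siRNA differed from GL3 control siRNA by 0.03. Cxcl12, the stromal ligand of Cxcr4, had a difference of -0.39 between the control siRNAs, SEAP-M minus GL3 (standard error 0.15, adjusted p = 0.339), and of 0.21 between PPARa-M and SEAP-M control siRNA. Cxcl14, whose probes did not follow each other, differed by 0.17 for PPARa against GL3 control siRNA (standard error 0.08), and Cxcl16, a membrane-bound ligand of Cxcr6, by 0.08.

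None of the ligands that draw monocytes passed in a comparison, and Ccl2 and Ccl7 varied together over the mice. Ccl2 (MCP-1), the main ligand of Ccr2, was 0.51, -0.18, 0.82 and 0.76 in PPARa-M siRNA A to D, and -1.01, 0.49, 0.26 and -0.34 in SEAP-M control siRNA. It was -0.51, 0.02, -0.36 and -0.23 in PPARa siRNA, -0.35, 0.39, -0.24 and 0.16 in GL3 control siRNA and -0.31, -0.07, 0.23 and 0.12 in vehicle. With PPARa-M siRNA 3 mice lay above all others and mouse B lay among them. Ccl7 (MCP-3) was likewise lowest in SEAP-M control siRNA A, with 0.65, -0.26, 0.51 and 0.64 in PPARa-M siRNA and -1.35, 0.57, 0.19 and -0.22 in SEAP-M control siRNA A to D, and between -0.42 and 0.45 in the 12 mice of the other groups. Between PPARa-M and SEAP-M control siRNA the difference was 0.63 for Ccl2 (standard error 0.28, adjusted p = 0.225) and 0.59 for Ccl7 (standard error 0.30, adjusted p = 0.309), and all 4 monocyte-attracting ligands had a positive difference, with a median of 0.38 and 0 passing. The mean of the 4 was -0.73 in SEAP-M control siRNA A, against 0.35, 0.13 and -0.17 in B, C and D. It was 0.22, -0.09, 0.43 and 0.46 in PPARa-M siRNA A to D. For PPARa against GL3 control siRNA all 4 were negative, with a median of -0.12 and 0 passing, and the contrast of the siRNA effects was 0.88 for Ccl2 (standard error 0.39, adjusted p = 0.356). Ccl8 and Ccl12 moved less, with differences of 0.05 and 0.18 between PPARa-M and SEAP-M control siRNA. Ccl8 was lower in every SEAP-M control siRNA mouse than in every GL3 control siRNA mouse (difference -0.22, standard error 0.09, adjusted p = 0.353).

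SEAP-M control siRNA A was the lowest of the 20 mice for Ccl2, Ccl3, Ccl5, Ccl7, Cxcl2, Cxcl9 and Cxcl10, and its mean over the 47 genes was -0.29, against -0.08 to 0.13 in the other mice. It also had the lowest mean of the 20 mice for markers of neutrophils (-0.49), monocytes and macrophages (-0.44), dendritic cells (-0.42), natural killer and cytotoxic cells (-0.35), T cells (-0.23) and platelets (-0.18), and the highest for stellate cells (0.37). Its Kupffer cell markers, at -0.23, lay within the range of the other mice, -0.42 to 0.33, as did those of B cells (0.02), endothelium (0.10) and hepatocytes (0.00). The part of these cells in the chemokine values was not tested. Without this mouse and PPARa siRNA D, which has the highest neutrophil markers, 0 of the 47 passed between PPARa-M and SEAP-M control siRNA and 3, Ccl4, Ccl25 and Ccr3, passed between PPARa-M siRNA and vehicle, where 8.97% of all genes did.

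**Figure D5:**
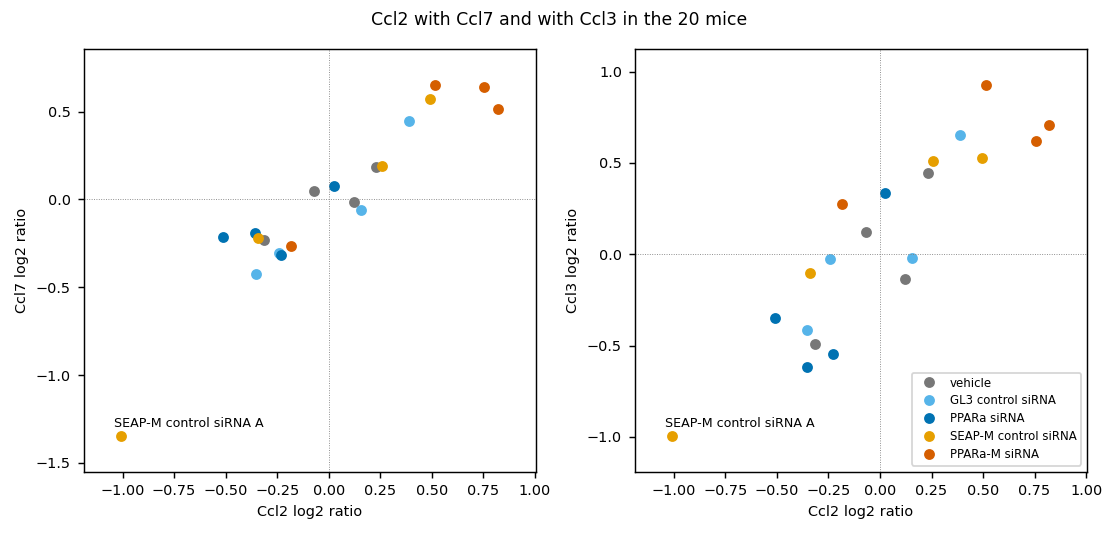
Log2 ratio of Ccl7 (left) and of Ccl3 (right) against that of Ccl2 in the 20 mice, coloured by group. Pearson's r is 0.939 and 0.892, and SEAP-M control siRNA A is lowest for all 3 genes.

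Across the 20 mice 1081 pairs of the 47 genes were correlated, and 12 passed an adjusted p of 0.05 by both Pearson's r and Spearman's rho in permutation tests, all of them positive. All mice share the reference pool, and the median r over the pairs was 0.03. Ccl2 with Ccl7 had r = 0.939 and rho = 0.878 (p = 1e-05 for each, the smallest that 100000 permutations can give, adjusted p = 0.00270), and r was 0.939 with group means removed and 0.934 without PPARa-M siRNA C and SEAP-M control siRNA A, the mice farthest from the median of Ccl2. Ccl2 with Ccl3 had r = 0.892 and rho = 0.908 (p = 1e-05 for each, adjusted p = 0.00270), and r = 0.850 without the same mice. Ccl7 with Cxcl2 had r = 0.854 and rho = 0.814 (permutation p = 3e-05 for each, adjusted p = 0.00649), and r = 0.740 without them. Ccl6, Ccl4 and Ccr2 were joined to this group by further pairs that passed, Ccl3 with Ccl4 (r = 0.729) and with Ccl6 (r = 0.793), Ccl2 with Ccl6 (r = 0.730) and Ccl6 with Ccr2 (r = 0.725). The T cell receptors Cxcr3 and Cxcr6 formed a pair of their own at r = 0.840 and rho = 0.832 (p = 1e-05 for each, adjusted p = 0.00270), with r = 0.679 without SEAP-M control siRNA A and GL3 control siRNA D, and Cxcr6 followed Ccl5 (r = 0.689). Of 47 pairs that are neighbours in the reference, 3 passed: Ccl2 with Ccl7, Ccl3 with Ccl4 and Ccl3 with Ccl6. Cxcl10 with Cxcl11 had r = 0.759 (adjusted p = 0.0185) but rho = 0.537 (adjusted p = 0.255), and r = 0.441 without PPARa-M siRNA C and D, so the relation rests on those mice.

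Of the inflammatory CC ligands, Ccl4 was higher with PPARa-M siRNA than with vehicle. Ccl4 (MIP-1β) was 0.71, 0.80, 0.33 and 0.28 in PPARa-M siRNA A to D and -0.01, -0.01, 0.18 and -0.33 in vehicle. In SEAP-M control siRNA it was -0.34, 0.36, 0.15 and -0.05, in PPARa siRNA -0.08, 0.27, 0.06 and -0.22 and in GL3 control siRNA 0.03, 0.19, -0.19 and -0.06. Every PPARa-M siRNA mouse lay above every vehicle mouse, while SEAP-M control siRNA B lay above 2 of the 4. Ccl4 rose 1.49-fold relative to vehicle (log2 difference 0.58, standard error 0.16, adjusted p = 0.0341, exact permutation p = 0.0286). The call was lost without vehicle A, B or D or PPARa-M siRNA A or B (adjusted p from 0.0546 to 0.140), with array quality weights (0.46, adjusted p = 0.0643), in a fit of these groups alone (adjusted p = 0.0991) and with arrays scaled to one interquartile range (0.40, adjusted p = 0.222) or quantile normalized (0.42, adjusted p = 0.245). The PPARa-M siRNA arrays had the widest spread, with a mean interquartile range of 0.305 against 0.177 in vehicle, and its part in this result was not tested. Relative to SEAP-M control siRNA the difference was 0.50 (standard error 0.16, adjusted p = 0.0883, exact permutation p = 0.0857), and for PPARa against GL3 control siRNA 0.02.

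Ccl3 (MIP-1α), the neighbour and close relative of Ccl4, was 0.93, 0.28, 0.71 and 0.62 in PPARa-M siRNA, -1.0, 0.53, 0.51 and -0.10 in SEAP-M control siRNA and -0.49, 0.12, 0.45 and -0.13 in vehicle. It was -0.35, 0.34, -0.62 and -0.55 in PPARa siRNA and -0.42, 0.66, -0.02 and -0.02 in GL3 control siRNA. Its groups overlapped in each comparison, and its difference of 0.65 between PPARa-M siRNA and vehicle (standard error 0.31, adjusted p = 0.216) came with a larger standard error than that of Ccl4. All 5 inflammatory CC ligands had a positive difference between PPARa-M and SEAP-M control siRNA, with a median of 0.24 and 0 passing. The mean of the 5 was -0.64 in SEAP-M control siRNA A, against 0.15, 0.19 and -0.05 in B, C and D. It was 0.35, 0.26, 0.19 and 0.19 in PPARa-M siRNA A to D. Whether each sign holds without SEAP-M control siRNA A was not tested. Ccl5 (RANTES) ranged from -1.23 in SEAP-M control siRNA A to 0.52 in GL3 control siRNA D, and Ccl6 and Ccl9 differed by 0.22 and 0.05 in that comparison.

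No ligand of eosinophils and helper T cells passed. Ccl22, a ligand of Ccr4, was the member with the smallest p between both Ppara siRNAs and both control siRNAs, with a difference of 0.20 (standard error 0.05, adjusted p = 0.123). It was 0.28, 0.46, 0.13 and 0.12 in PPARa-M siRNA, 0.23, 0.06, 0.14 and 0.01 in PPARa siRNA, -0.08, 0.12, -0.01 and -0.01 in SEAP-M control siRNA, -0.02, -0.09, -0.04 and -0.02 in GL3 control siRNA and 0.01, 0.02, 0.15 and 0.01 in vehicle. Every PPARa siRNA mouse lay above every GL3 control siRNA mouse, though the latter also lay below every vehicle mouse. Without PPARa-M siRNA C and D, Ccl22 passed between the Ppara and the control siRNAs (difference 0.26, adjusted p = 0.0350, where 0.413% of all genes passed). Ccl24 (eotaxin-2) was 0.03, -0.38, -0.61 and -0.65 in PPARa-M siRNA, -0.31, -0.05, -0.21 and 0.35 in PPARa siRNA, -0.10, 0.32, 0.15 and -0.18 in SEAP-M control siRNA, 0.09, 0.18, 0.13 and 0.51 in GL3 control siRNA and -0.10, -0.51, 0.28 and 0.39 in vehicle. Its difference between both Ppara siRNAs and both control siRNAs was -0.36 (standard error 0.14, adjusted p = 0.315). Ccl11 (eotaxin-1) had a wide range over mice, from -0.38 in vehicle B to 1.08 in SEAP-M control siRNA D, and a narrow one over group means, from 0.07 to 0.30.

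Among the homeostatic ligands Ccl25 was lower with PPARa-M siRNA than with vehicle. Ccl25 (TECK), the ligand of Ccr9 in thymus and gut, was -0.38, -0.61, -0.67 and -0.19 in PPARa-M siRNA A to D and 0.04, -0.11, -0.05 and 0.33 in vehicle, with no overlap. It was -0.14, -0.13, -0.06 and -0.22 in PPARa siRNA, 0.19, -0.25, -0.10 and -0.14 in SEAP-M control siRNA and -0.03, -0.16, -0.10 and -0.15 in GL3 control siRNA. PPARa-M siRNA A, B and C were the lowest of the 20 mice. Relative to vehicle Ccl25 fell to 0.698-fold (log2 difference -0.52, standard error 0.11, adjusted p = 0.0129, exact permutation p = 0.0286). The call was lost without vehicle D (adjusted p = 0.0573), in a fit of these groups alone (adjusted p = 0.0972) and with arrays scaled to one interquartile range (-0.35, adjusted p = 0.152) or quantile normalized (-0.38, adjusted p = 0.169). Relative to SEAP-M control siRNA the difference was -0.39 (standard error 0.11, adjusted p = 0.0652), and it passed without vehicle D (adjusted p = 0.0480) or PPARa-M siRNA D (adjusted p = 0.0345).

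Ccl27a (CTACK), a ligand of skin-homing T cells, passed the F test (adjusted p = 0.0457). It was 0.10, 0.20, 0.32 and 0.34 in PPARa-M siRNA A to D, -0.18, -0.15, 0.09 and -0.00 in SEAP-M control siRNA and 0.03, 0.11, 0.13 and -0.01 in vehicle. It was -0.16, -0.10, -0.21 and -0.36 in PPARa siRNA and 0.22, -0.16, -0.31 and -0.20 in GL3 control siRNA. The PPARa-M siRNA mice lay above all SEAP-M control siRNA mice (difference 0.30, standard error 0.10, adjusted p = 0.104, exact permutation p = 0.0286), and the PPARa siRNA mice below all vehicle mice (difference -0.27, standard error 0.10, adjusted p = 0.683). It also had the smallest p of the 47 in the contrast of the siRNA effects (0.40, standard error 0.14, adjusted p = 0.218). In the F test Ccl27a was lost when any 1 mouse was left out other than PPARa siRNA B, SEAP-M control siRNA C or GL3 control siRNA A. Ccl27a and Ccl21c have near-identical copies in the genome, and which copies a probe reads is not given in the sources used here.

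Ccl20, the ligand of Ccr6, was 0.16, 0.66, 0.41 and 0.22 in PPARa-M siRNA, -0.36, -0.12, -0.30 and 0.20 in SEAP-M control siRNA, 0.30, -0.22, 0.42 and -0.10 in PPARa siRNA, 0.03, -0.12, -0.10 and 0.01 in GL3 control siRNA and -0.18, 0.03, 0.16 and 0.15 in vehicle. Between PPARa-M and SEAP-M control siRNA its difference was 0.50 (standard error 0.15, adjusted p = 0.0691), and it passed without SEAP-M control siRNA D (adjusted p = 0.031), the control mouse that overlapped. Ccl19, Ccl21c and Ccl28 differed by 0.09, 0.15 and 0.08 in that comparison. Xcl1 (lymphotactin), made by activated lymphocytes, was 0.15, 0.20, 0.47 and 0.24 in PPARa-M siRNA, 0.37, 0.09, 0.10 and 0.13 in PPARa siRNA, 0.01, 0.16, 0.10 and -0.09 in SEAP-M control siRNA, 0.37, 0.18, 0.36 and 0.15 in GL3 control siRNA and 0.28, -0.34, -0.13 and 0.09 in vehicle. It was the member with the smallest p between GL3 control siRNA and vehicle (0.29, standard error 0.11, adjusted p = 1.0), and Cx3cl1 (fractalkine), a membrane-bound ligand, had a difference of -0.05 between PPARa-M siRNA and vehicle.

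None of the 14 receptors passed in a comparison or in the F test. Ccr3, the eotaxin receptor of eosinophils, was -0.43, -0.44, -0.93 and -0.34 in PPARa-M siRNA and 0.17, -0.15, -0.19 and 0.11 in vehicle, with no overlap (difference -0.52, standard error 0.18, adjusted p = 0.0885). SEAP-M control siRNA D, at -0.73, lay among the PPARa-M siRNA mice. Ccr1, a receptor of Ccl3 and Ccl5, was 0.16, 0.05, 0.02 and 0.26 in PPARa siRNA, above each GL3 control siRNA mouse (difference 0.17, standard error 0.08, adjusted p = 1.0). Ccr9, the receptor of Ccl25, was 1.94 in SEAP-M control siRNA D and lay between -0.67 and 0.24 in the 19 other mice. It was -0.26, -0.15 and 0.10 in SEAP-M control siRNA A, B and C, and between PPARa-M siRNA and that group its difference was -0.41 (standard error 0.33). Ccr2, the receptor of Ccl2, differed by 0.05 between PPARa-M and SEAP-M control siRNA (standard error 0.27) and Ccr8 by -0.41 (standard error 0.34).

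Of the CXC receptors, Cxcr4 had the widest range of group means, from -0.16 with SEAP-M control siRNA to 0.12 with GL3 control siRNA. It was -0.02, -0.27, -0.15 and -0.20 in the first group and -0.01, 0.29, 0.28 and -0.07 in the second (difference -0.28, standard error 0.12, adjusted p = 0.408). It lay between -0.46 and 0.19 in the 12 mice of the other groups. Cxcr6, a receptor of T and natural killer T cells, ranged from -0.67 in SEAP-M control siRNA A to 1.03 in GL3 control siRNA D. It was -0.23, -0.01 and -0.62 in GL3 control siRNA A, B and C, 0.60, -0.06, -0.33 and -0.25 in PPARa siRNA A to D and between -0.35 and 0.29 in the 11 other mice. T cell markers were at 0.38 on average in GL3 control siRNA D, the highest of the 20 mice, and their part in Cxcr6 was not tested. The differences of the 6 CXC and CX3C receptors lay between -0.12 and 0.13 for PPARa-M siRNA against SEAP-M control siRNA and between -0.08 and 0.07 for PPARa siRNA against GL3 control siRNA.

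Groups that do not overlap were counted beside the same count over all genes. Between PPARa-M and SEAP-M control siRNA this held for 1 of the 47, Ccl27a, against 10.1% of all genes, and for PPARa against GL3 control siRNA for 3, Cxcl1, Ccl22 and Ccr1, against 4.05%. Relative to vehicle it held for 3 with PPARa-M siRNA, Ccl4, Ccl25 and Ccr3, against 13.2%, and for 1 with PPARa siRNA, Ccl27a, against 3.28%. Comparisons without a Ppara siRNA gave such members too. In SEAP-M against GL3 control siRNA Ccl21c was higher (4.5% of all genes) and Ccl8 and Cxcl5 were lower (4.92%). In GL3 control siRNA against vehicle Cxcl13 was higher (1.4%) and Ccl22 lower (1.62%). SEAP-M control siRNA against vehicle gave 0 members, beside 1.99% of all genes higher and 2.66% lower.

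For the rest of the pathway, calls are set beside the share of all genes that passed. That share was 2.54% for PPARa-M against SEAP-M control siRNA and 7.28% for PPARa-M siRNA against vehicle. It was 0.0524% for PPARa against GL3 control siRNA and 5.75% in the F test. Of 13 other genes of the chemokine system, Ackr1, the decoy receptor of red cells and venules that binds inflammatory chemokines, was lower with PPARa-M siRNA than with SEAP-M control siRNA (difference -0.39, standard error 0.10, adjusted p = 0.0428), and the other 12 did not pass. Of 23 inflammatory cytokines and genes of NF-κB feedback, 0 passed between PPARa-M and SEAP-M control siRNA (1 by unadjusted p) and 1, Il18, fell relative to vehicle (difference -0.40, standard error 0.11, adjusted p = 0.0363). For PPARa against GL3 control siRNA 0 of the 23 passed (1 by unadjusted p). Nfkbia, the inhibitor that NF-κB induces against itself, had the smallest p there (difference -0.40, standard error 0.11, adjusted p = 0.482). Tnf differed by 0.12 (standard error 0.06). Marker lists of neutrophils, T, B, natural killer, dendritic, Kupffer and stellate cells, macrophages and platelets gave 0 calls in every comparison between 2 groups, and endothelial and hepatocyte lists 1 each, between PPARa-M siRNA and vehicle. In the F test 1 marker each of dendritic, platelet, stellate and hepatocyte lists passed, as did 2 of the 13 other chemokine system genes, 3 of the 29 interferon-stimulated genes and 0 of the 23 cytokine genes (2 by unadjusted p). Ratios to a pool of the same tissue do not show the level of a marker, so the tissue of origin could not be checked by them.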

How the data were processed

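Liver RNA of 20 mice was hybridised by the authors on a custom mouse oligonucleotide array with 2 colours against a pool of RNA from the vehicle mice. The deposited values are log10 ratios (base read from their limits, since the labels do not state it) of mouse to pool. How the authors normalized them is not given in the sources used here. No intensities were analysed, so no filter on signal and no detection call was possible.

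Ratios were converted to log2, and probes with a single symbol were averaged per gene. A further 4638 probes had no symbol and 65 had several. Of the family, Ccl21a, Ccl21b, Ccl21d, Ccl26, Ccl27b, Ccr10, Cxcl3, Cxcl17 and Cxcr1 were not analysed here. limma 3.58.1 in R 4.3.3 fitted 5 group means over 20 arrays and 15256 genes, with 9 contrasts, an F test and Benjamini-Hochberg adjustment. Values of single genes were also compared by two-sided exact permutation, 4 mice against 4. Correlations used 100000 permutations (Python 3.11.15, scipy 1.17.1). Groups were taken from the labels, and the mice of a group are separate animals.

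Members, gene lists and alternatives were chosen with earlier results of these data known. Values per mouse were given for every member that passed and, in each role, for the members with the widest range of group means and over mice; the 4 members with the smallest p in each comparison were also named. Ccl5, Ccl19, Cxcl2, Cxcl9, Cxcl11 and Cxcl14 values per mouse were chosen after they were seen. Values per mouse were also given for Ccl22, Ccr1 and Ccr3, which neither passed nor had the widest range of their role. Alternatives were centring, quantile normalization, scaling to one interquartile range, array weights, robust moderation, the median of probes, probes in place of genes, a 1.5-fold filter, a stricter threshold, the replicate letter as a block, the compared groups alone, and each mouse left out. The fit was tested on simulated data of 15256 genes. For PPARa-M against SEAP-M control siRNA it recovered 83 of 100 genes shifted 1.5-fold and 93 of 100 shifted 2-fold. Of the unshifted genes 7 were called. The shifted genes were drawn at random from all genes, with normal noise at the gene's own SD in every group. Of the 47 members 36 had an SD above the array median, so these figures do not give the recovery of the chemokine genes.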

Additional observations from a re-analysis of the deposited data

Results flagged for a closer look

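Among 80 groups of 4 values, 16 genes in 5 groups, 5 held a mouse far from the other 3 by Dixon's criterion. Chance alone marks about 1 in 20 groups when genes are chosen without regard to their values. Most of the 16 genes were chosen for a wide range of group means or over mice, as was every flagged gene. That rate therefore does not apply here. Cxcl10 was 0.3528 in PPARa siRNA C, against -0.85 to -0.66 in the other mice of that group. Cxcl10 was -2.0822 in SEAP-M control siRNA A, against -0.45 to -0.25. Ccl7 was -0.2638 in PPARa-M siRNA B, against 0.51 to 0.65. Xcl1 was 0.3734 in PPARa siRNA A, against 0.09 to 0.13. Ccr9 was 1.9354 in SEAP-M control siRNA D, against -0.26 to 0.10. Cxcl10, Ccl7, Xcl1 and Ccr9 are each read by 1 probe, so no second probe bears on their values.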

How the results depend on the processing

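Of the values of single genes recomputed under the alternatives, 1073 kept their direction and side of the threshold, 9 came to pass, 13 no longer passed and none turned its sign. These values were of the members with the smallest p in each comparison, so the tally is no test of sign over all members. All 13 losses fell on Ccl4 and Ccl25 between PPARa-M siRNA and vehicle, the only calls among these values at the start. The 1073 were therefore largely values that did not pass before or after, and do not show that the calls were stable. Relative to vehicle, PPARa-M siRNA had 2 members called, and 0 after quantile normalization, after scaling to one interquartile range, at an adjusted p under 0.01 and with only the groups compared. Array weights called Ccl25 and Cxcl11 and lost Ccl4. The count ran from 0 to 3 with 1 mouse left out. The F test had 2, and 0 after quantile normalization, after scaling and at 0.01, 1 with the 1.5-fold filter, 3 with array weights (Cxcl11 added), 3 with probes in place of gene means (Ccl25 added), and 0 to 2 with 1 mouse left out. PPARa-M against SEAP-M control siRNA had 0, 1 with array weights (Cxcl11) and 0 to 1 with 1 mouse left out. Over all genes this comparison had 388 calls, 1 after quantile normalization, 13 after scaling and 882 with array weights. The cause was not tested.

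With the replicate block 1 member, Ccl4, passed for PPARa-M against SEAP-M control siRNA (0.50, limma's adjusted p = 0.0440), and 3 passed the F test, Ccl4, Ccl25 and Cxcl1, without Ccl27a. No general pairing by letter was seen: deviations of same-lettered mice had a median correlation of -0.017 over 40 pairs, against 0.012 over 120 others. The 40 ranged from -0.205 to 0.302, and pairing of single mice was not tested.

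Leaving out PPARa-M siRNA C and D together, chosen after seeing the data, gave 5 calls relative to vehicle (13.4% of all genes passed), 2 relative to SEAP-M control siRNA (Ccl4 and Ccl22; 4.33% of all genes) and 1 for both Ppara siRNAs against both control siRNAs (Ccl22; 0.413%). Leaving out SEAP-M control siRNA A and PPARa siRNA D, also chosen after seeing the data, gave 3 relative to vehicle with PPARa-M siRNA and 1 in the F test, Ccl25.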
